A study of Mus musculus with 10 samples.

Results

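Gene expression was described in the 5 inflamed tumours of a series of 10 mouse gastric tumours, taken as the 5 columns that the labels give to the inflamed type. Each tumour was measured once by bulk RNA sequencing, and the variation among the 5 tumours across genes is what follows. The 5 desert tumours of the series were not used here. All 5 inflamed tumours carried the genotype Tff1-CreERT2;Apcfl/fl;Trp53fl/fl, in which a tamoxifen-inducible Cre recombinase under Tff1 deletes floxed Apc and Trp53, and the labels give stomach as the tissue and genetic mutation as the treatment. Which cells had recombined in each animal, the age and sex of the animals, the time after induction and whether each tumour came from a separate mouse are not stated in the labels. The protocol text speaks of 6 tumours, 3 of them of this type, whereas the series holds 5 of this type, and all 5 were used. Tumours are called 1 to 5 as labelled, and a run of 5 values is in that order. The numbers are names and carry no order.

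The Apc protein is part of the complex that marks beta-catenin for destruction, and its loss leaves Wnt target genes switched on, while p53 halts the division of damaged cells. The gastric mucosa holds pit cells that secrete the surface mucus, neck cells that secrete gland mucus, chief cells that secrete digestive enzymes and parietal cells that secrete acid. In mice the upper part of the stomach, the forestomach, is lined by squamous epithelium, and the wall is built of smooth muscle. A piece of a gastric tumour can therefore hold tumour epithelium, normal mucosa, squamous lining, muscle, vessels and infiltrating immune cells. In bulk RNA, fewer cells of a type and less RNA per cell cannot be told apart.

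Libraries were alike in depth, with 15474313 to 15975770 reads in genes and 13852 to 14179 genes at 1 FPKM or more. FPKM is reads per kilobase of gene, scaled by a divisor for each library. In tumours 1 to 5 that divisor, recovered from the values, was 1.10, 1.09, 1.12, 0.98 and 1.04 times the reads in genes. How the authors set it is not given, and in tumour 4 it was below the reads in genes. With 1 library per tumour there was no replicate within a tumour, so spread between tumours holds biology, tissue sampling and library preparation together, and no test between groups was made. Levels were compared on log2(FPKM + 1). Gastric identity was present throughout: Gkn3, a gastrokine of the neck region, was at 2173, 2250, 2467, 2162 and 2160 FPKM. Ptprc, the leukocyte gene for CD45, which was picked with its values known, had 2.86, 2.26, 2.03, 1.17 and 4.24 FPKM, so every tumour held immune transcripts and tumour 4 held the fewest by this gene. Tumour 4 differed from the others in scale: its FPKM summed to 356133, against 280795 to 312690 in the others, and after scaling all sums to be equal its median gene lay at -0.19 from the gene's own mean on the log2 scale, and those of the other tumours at -0.03 to 0.08, against -0.02 to 0.01 as deposited.

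Over 16475 genes whose mean was 0.5 FPKM or more, the tumours resembled each other closely. Pearson's r between tumours, taken across genes that are not independent replicates, ran from 0.919 for tumours 1 and 4 to 0.973 for tumours 1 and 2. All 4 pairs with tumour 4 (0.919 to 0.947) were lower than the 6 pairs without it (0.954 to 0.973). On the first principal component (48.3% of the variance) tumour 4 lay apart from the rest, with tumour 1 at the far end. The second, with 23.5%, ran from tumour 3 to tumour 5. Chromosome medians stayed between -0.09 and 0.08 on the log2 scale in every tumour.

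A gene was said to stand apart where 1 tumour was at least 1 on the log2 scale above the highest, or below the lowest, of the other 4. This was so above in tumours 1 to 5 for 48, 36, 39, 239 and 29 genes (0.291%, 0.219%, 0.237%, 1.45% and 0.176% of the 16475). Below, it was so for 22, 22, 44, 111 and 27 genes (0.134%, 0.134%, 0.267%, 0.674% and 0.164%). Tumour 4 thus held more genes apart than any other tumour in either direction. By plain rank, tumours 1 to 5 were the highest of the 5 for 21.2%, 16.1%, 15.1%, 27.5% and 20% of the genes, and the lowest for 18.9%, 14.4%, 20.9%, 28.4% and 17.4%. The members of each gene group are read against these shares.

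**Figure D1:**
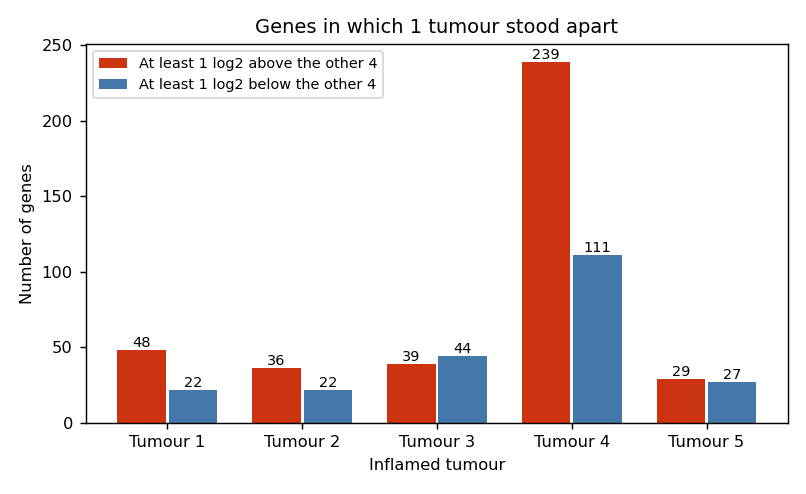
Number of genes (of 16475 averaging at least 0.5 FPKM) in which each inflamed tumour was at least 1 on the log2(FPKM + 1) scale above (red) or below (blue) all of the other 4. Tumour 4 has 239 genes above and 111 below, and no other tumour has more than 48 in either direction.

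Among the genes ranked, the most abundant transcripts were those of the gastric surface and glands, and their levels differed widely between tumours. Here and in the rankings by spread, predicted, ribosomal protein and mitochondrially encoded genes, pseudogenes and antigen receptor segments were left out. Of those left out, mt-Co1 had a mean of 7143 FPKM, above that of every gene ranked. The 20 ranked genes of highest mean FPKM took 10.2%, 10.9%, 13.9%, 18.1% and 14.2% of the FPKM sum in tumours 1 to 5. Among the genes ranked, Tff2, the trefoil factor of neck cells, had the highest mean, at 3751, 6130, 6906, 10057 and 8414 FPKM. Gkn2, a gastrokine that pit cells secrete (ENSMUSG00000030049, chromosome 6, 87350339 to 87356479, positions as the deposited table holds them), was second with 800, 1752, 2443, 18300 and 5555 FPKM. Its partner Gkn1 was at 495, 1036, 1743, 11752 and 3298 FPKM. Tumour 4 was highest and tumour 1 lowest for all 3 genes, but Tff2 spanned less than Gkn2 did (SD 0.54 against 1.72 on the log2 scale).

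Other abundant genes were steady or followed another order. Clu, a chaperone induced in injured gastric glands, was at 2101, 2300, 2407, 1493 and 2243 FPKM. The elongation factor gene Eef1a1 was at 2913, 2770, 2336, 2057 and 2468 FPKM and its counterpart Eef2 at 1138, 943, 928, 747 and 880. These 3 genes were lowest in tumour 4. Krt8, a keratin of simple epithelia, was at 1068, 1108, 1195, 2542 and 1800 FPKM and its relative Krt19 at 796, 766, 1001, 2216 and 1485 FPKM, both highest in tumour 4 and next in tumour 5. Pigr, which carries IgA across the epithelium, was at 1109, 1332, 727, 427 and 804 FPKM and was highest in tumour 2. Dmbt1, a secreted scavenger receptor of injured mucosa, was at 768, 929, 1391, 373 and 700 FPKM, highest in tumour 3. Lypd8 and Lypd8l, mucosal surface proteins coded close together on chromosome 11, were at 330, 734, 600, 1672 and 1528 and at 1203, 1099, 1150, 2165 and 2314 FPKM. Tumours 4 and 5 were above the other 3 in both genes, and reads of such similar genes may be shared between them. The rest of the 20 were Gsto1, Tmsb4x, the ribosomal RNA gene Rn18s-rs5 and Pgc, B2m, H2-K1 and Cd74, whose groups are described below.

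Of 8205 genes whose mean was 5 FPKM or more, 180 (2.19%) had an SD of at least 1 over the 5 tumours on the log2 scale, where the median SD was 0.17. Over the 4 tumours without tumour 4 the count was 112, and 11 of the 25 genes of largest spread were the same; the lowest r between tumours was then 0.954. An SD of at least 2 was found for 22 genes and of at least 3 for 5 genes. Just inside the threshold were Sprr2a3 and H2-Ab1 (1.01 each), and just outside were Sptssb (0.998) and Pdlim3 (0.997). Tumours 1 to 5 were highest in 32, 19, 27, 79 and 23 of the 180 and lowest in 48, 28, 23, 56 and 25. Of the 180, 57 were members of the gene lists used here, and 21 were antigen receptor segments, 11 of them highest in tumour 1 and 9 in tumour 2. How many of the 8205 genes were list members or segments was not counted, so neither count can be read as more than its share.

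The 5 genes of largest spread, those with an SD of at least 3, were secreted mucosal proteins. Chil4, a chitinase-like protein of type 2 inflammation (ENSMUSG00000063779, chromosome 3, 106108806 to 106126823), was at 1.23, 0.126, 2.07, 1553 and 130 FPKM. Its values in tumours 1 to 3 rested on 61, 6 and 102 reads, against 66579 in tumour 4. Lyz1, the lysozyme of Paneth cells (ENSMUSG00000069515, chromosome 10, 117123702 to 117128773), was at 130, 817, 243, 0.728 and 0.726 FPKM. The high tumours of these genes were opposite: Chil4 was high in tumours 4 and 5, and Lyz1 in tumours 1, 2 and 3. Chia1, the acidic chitinase of chief cells (ENSMUSG00000062778, chromosome 3, 106020545 to 106039436), was at 177, 0.156, 774, 2.49 and 16.8 FPKM. Cym, the milk-clotting protease chymosin, was at 254, 23, 575, 0.904 and 6.92 FPKM. Both had tumours 3 and 1 on top, and tumour 2 was at 5 reads in Chia1 (95% Poisson interval 0.0506 to 0.364 FPKM). Clca1, a goblet cell protein that opens secreted mucus, was at 16.5, 130, 16.6, 1594 and 1187 FPKM, high in tumours 4 and 5 and intermediate in tumour 2. Intervals and floors of read counts cover counting error only.

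**Figure D2:**
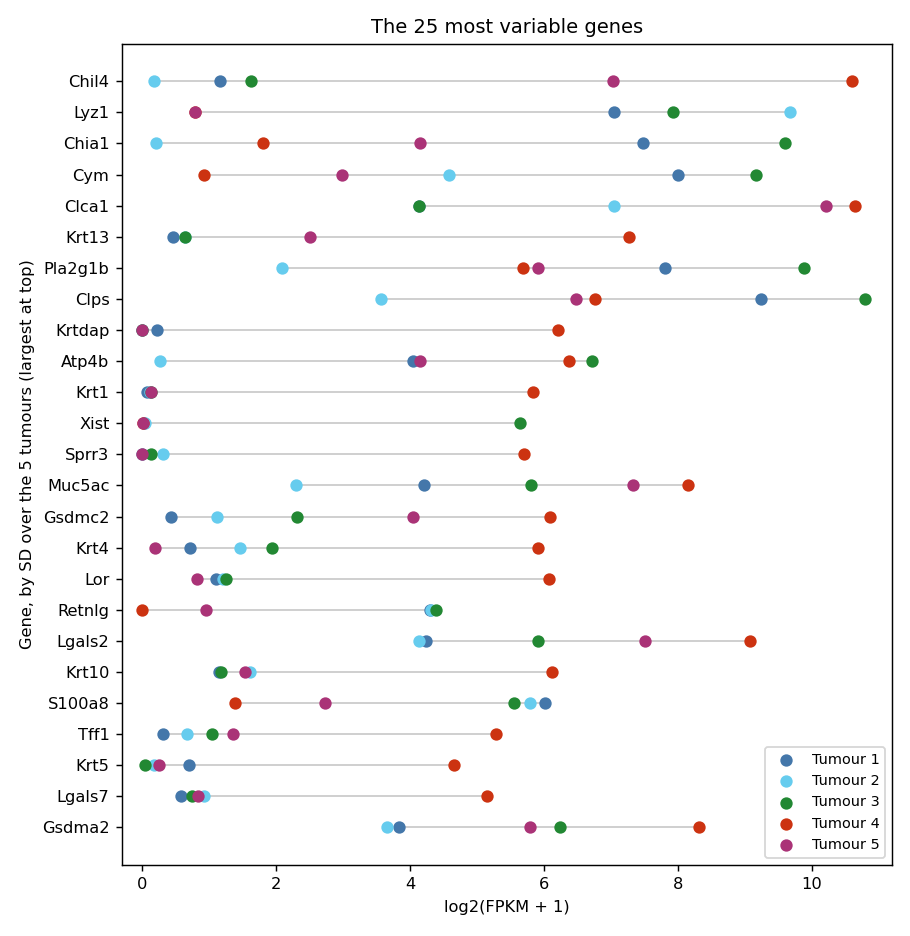
The 25 ranked genes with the largest SD of log2(FPKM + 1) over the 5 inflamed tumours among genes averaging at least 5 FPKM, ordered by that SD. Predicted, ribosomal protein and mitochondrially encoded genes, pseudogenes and antigen receptor segments were left out, 33 of the 180 variable genes. Each point is 1 tumour and the grey line spans the lowest to the highest. Squamous genes such as Krt13 and Krtdap have 1 high point (tumour 4), whereas Clca1 and Muc5ac have high points in tumours 4 and 5 and Chia1, Cym, Clps and Pla2g1b in tumours 3 and 1.

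At the other extreme, 1453 of the 8205 genes had an SD under 0.1. The steadiest genes with a mean of at least 20 FPKM had an SD of 0.02 to 0.03. Adam9, a membrane protease, was at 55.9, 57.8, 56, 57.7 and 56 FPKM. Spop, a ubiquitin ligase adaptor, was at 48.8, 49.8, 48, 48.3 and 49.8 FPKM, and Lamp1, a lysosomal membrane protein, at 142, 147, 140, 141 and 141 FPKM. The other 7 of the 10 steadiest were Slc44a1, Nfe2l1, Atp2a2, Sephs2, Rrp1, Gosr2 and Idh3g, and in none of them was the highest tumour more than 1.06 times the lowest.

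Pit cell genes formed the strongest gradient within the gastric mucosa. All 12 pit cell genes were highest in tumour 4 (27.5% of all genes were), and 10 of the 12 were lowest in tumour 1 (18.9%). Of the 12, 8 followed the same full order of tumours, 4 above 5, 3, 2 and 1. The level of the list, the median deviation of its members from their own means, was -1.08, -0.77, -0.16, 2.07 and 0.39 on the log2 scale, against -0.02 to 0.01 for all genes. Both counts were the same after scaling to equal sums.

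Muc5ac, the main mucin of the gastric surface, was at 17.5, 3.9, 54.7, 281 and 160 FPKM. Psca, a surface antigen of pit cells, was at 118, 131, 382, 1873 and 614 FPKM, and Mucl3, a mucin-like membrane protein, at 177, 227, 285, 1965 and 370 FPKM. Tumour 4 was highest and tumour 5 next in each, and Psca and Mucl3 stood apart above in tumour 4. Tff1, the pit cell trefoil factor whose locus drives the Cre, was at 0.242, 0.591, 1.06, 37.8 and 1.56 FPKM. It rested on 3 reads in tumour 1 (95% Poisson interval 0.05 to 0.708 FPKM) and 404 in tumour 4. Ctse, an aspartic protease of the surface epithelium, varied less, at 550, 752, 595, 1114 and 711 FPKM (SD 0.40). Anxa10, an annexin of gastric epithelium, was at 130, 151, 241, 624 and 402 FPKM and Cldn18, the gastric tight junction claudin, at 168, 139, 177, 336 and 267. Some genes outside the list also had tumour 4 first and tumours 1 and 2 last. Lgals2, a galectin of the digestive tract, was at 17.8, 16.5, 59.1, 540 and 181 FPKM. Gsdmc2, a gasdermin, was at 0.343, 1.18, 3.98, 67.1 and 15.4 FPKM, and its relative Gsdma2 at 13.3, 11.6, 74.6, 317 and 54.5 FPKM.

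Neck and chief cell genes did not vary as a single group. The list of 9 members used of 10 had levels of 0.07, -0.13, 0.40, -0.16 and -0.11, a small range for members of very unequal spread. Gkn3 was steady (SD 0.08). Muc6, the gland mucin of neck cells, was at 143, 249, 248, 175 and 148 FPKM (SD 0.39). Aqp5, a water channel of gland cells, was at 105, 148, 77.1, 88.9 and 92.3 FPKM. No tumour lay apart from the rest in these 3 genes.

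Several digestive enzyme genes were highest in tumour 3. Of these, Pgc, Pga5 and Chia1 belong to the list. Clps, Pla2g1b and Cym, and Chia1 too, were named for their large spread, so their spread only describes that choice. Pgc, the pepsinogen that chief cells and their precursors make, was at 2532, 813, 6737, 1350 and 743 FPKM. Pga5, another pepsinogen, was at 10.2, 0.588, 34.9, 14.6 and 11.9 FPKM. Clps, the cofactor of pancreatic lipase, was at 602, 10.8, 1766, 107 and 88.4 FPKM and Pla2g1b, a secreted phospholipase, at 221, 3.25, 939, 50.6 and 59.2 FPKM. Tumour 3 was highest for all of these, and for Chia1 and Cym, and tumour 1 was second for all but Pga5. Tumour 2 was lowest for Chia1, Clps, Pla2g1b and Pga5, tumour 4 for Cym and tumour 5 for Pgc. Pancreatic acinar markers gave no such level: the summed FPKM of the 11 was 4.92, 0.644, 3.25, 0.299 and 0.476, with 0, 6, 5, 9 and 6 of them listed at 0 in tumours 1 to 5, and Cpa1 was listed at 0 in tumours 2 to 5. Cblif, the intrinsic factor that binds vitamin B12, was at 337, 126, 276, 79.7 and 162 FPKM, highest in tumour 1.

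The acid pump genes of parietal cells split the tumours differently. Atp4a, the catalytic subunit, was at 19.4, 4.7, 126, 97.5 and 21.3 FPKM, and Atp4b, its partner, at 15.5, 0.197, 104, 81.9 and 16.7 FPKM. Tumours 3 and 4 were both high, tumours 1 and 5 were lower and tumour 2 was lowest. Of 8 parietal members used, 6 were highest in tumour 3 (15.1% of all genes) and 5 were lowest in tumour 2 (14.4%). Kcne2, a subunit of the potassium channel that serves the pump, was at 1.29, 0.101, 4.92, 4.02 and 1.04 FPKM. The levels of the list were -0.26, -0.87, 0.80, 0.69 and -0.21. Tumour 4 was highest for 2 of the 8, Kcnj15 and Slc9a4, at 1.47 and 0.51 from their means on the log2 scale. It was lowest for 2 others, the chloride channel gene Clic6 at 30.9, 24.5, 35.5, 19.7 and 20.4 FPKM and the water channel gene Aqp4 at 0.583, 0.362, 1.1, 0.232 and 0.382 FPKM. The high level of tumour 4 thus went beyond the pump genes but was not shared by every member.

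Hormone genes added to the pattern of tumour 3. Of 9 enteroendocrine members used, 6 were highest there (15.1% of all genes), and 3 stood apart above the other tumours (0.237%). Ghrl, which codes for ghrelin, was at 41.6, 6.65, 103, 8.1 and 18.4 FPKM and Sst, which codes for somatostatin, at 13.7, 1.56, 38.7, 2.1 and 13.1 FPKM. Chga, a granule protein of endocrine cells, was at 21.2, 14.4, 48.6, 6.96 and 4.34 FPKM. The antral hormone gene Gast, which codes for gastrin, went another way, at 2.35, 10.2, 2.74, 40.4 and 2.26 FPKM, and stood apart above in tumour 4 alone. Of 6 tuft cell members used, 5 were highest in tumour 3 (15.1% of all genes), among them the channel gene Trpm5 at 1.48, 1.76, 5.27, 3.27 and 2.34 FPKM. The sixth, Avil, which codes for the actin-binding protein advillin, was the most abundant, at 124, 142, 89.4, 189 and 144 FPKM, and was lowest in tumour 3 and highest in tumour 4.

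**Figure D3:**
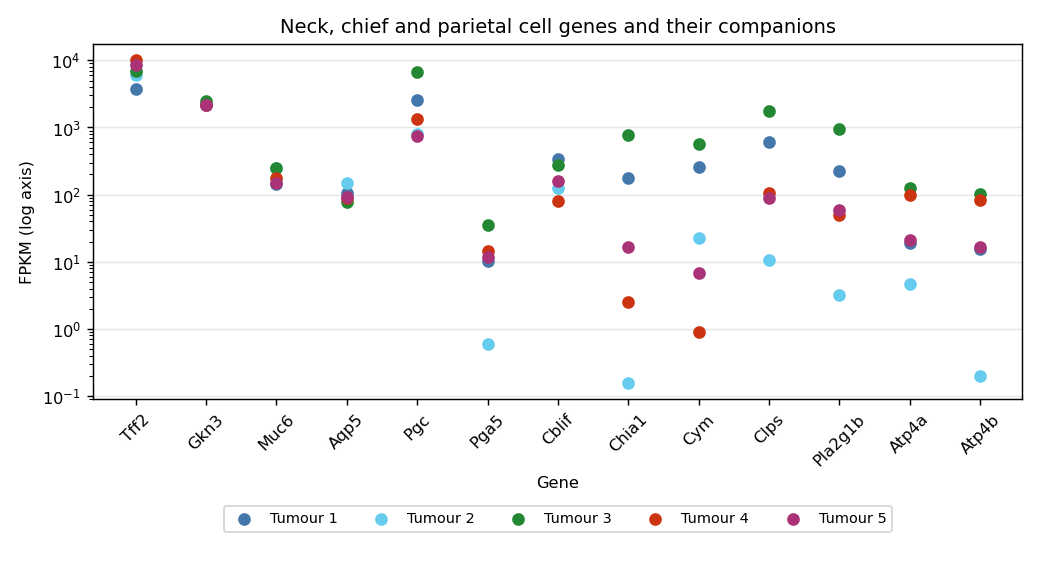
FPKM (log axis) of neck, chief and parietal cell genes and of enzyme genes in the 5 inflamed tumours, 1 point per tumour. Gkn3, Muc6 and Aqp5 spread less than the enzyme genes, while Pgc, Pga5, Chia1, Cym, Clps and Pla2g1b are highest in tumour 3, and Atp4a and Atp4b are high in tumours 3 and 4.

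Squamous genes were high in tumour 4 and low in the other tumours. Of 17 squamous members used of 19, 14 were highest in tumour 4 and 11 stood apart above the other tumours there (1.45% of all genes did). The levels of the list were -0.69, -0.71, -0.45, 2.65 and -0.69. After scaling to equal sums 13 of the 17 were highest in tumour 4. Krt13, a keratin of stratified lining (ENSMUSG00000044041, chromosome 11, 100008153 to 100012392), was at 0.374, 0.554, 0.565, 154 and 4.7 FPKM. Krt5, the keratin of the basal layer, was at 0.62, 0.135, 0.026, 24.2 and 0.195 FPKM and Krt14, its partner, at 1.42, 1.11, 4.65, 25 and 1.18 FPKM. Krt1, a keratin of cornifying layers, was at 0.0514, 0.0806, 0.0907, 56.2 and 0.0969 FPKM and Krt10 at 1.21, 2.05, 1.27, 68.2 and 1.91 FPKM. All 5 keratins had tumour 4 far above the rest, and a second tumour lay well above the remaining 3 in Krt13 (tumour 5) and Krt14 (tumour 3).

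Envelope genes of the cornified layer behaved alike. Krtdap, a keratinocyte differentiation protein, was at 0.167, 0, 0, 73.2 and 0 FPKM, where 3 reads are worth 0.253 to 0.27 FPKM in the tumours listed at 0. Lor, which codes for loricrin, was at 1.15, 1.3, 1.38, 66.4 and 0.755 FPKM and Sprr3, a small proline-rich envelope protein, at 0, 0.243, 0.0936, 51.1 and 0 FPKM. Lgals7, a galectin of stratified epithelium outside the list, was at 0.49, 0.896, 0.679, 34.5 and 0.791 FPKM. Trp63, the master regulator of stratified epithelium, was low everywhere, at 0.0135, 0.0212, 0.0613, 0.658 and 0.0146 FPKM, and also highest in tumour 4. There were exceptions among the members. Ivl, which codes for involucrin, was at 6.47, 5.87, 11, 2.26 and 3.75 FPKM and lowest in tumour 4. Sprr1a was at 96.2, 38, 83.5, 111 and 149 FPKM, highest in tumour 5, and Ly6d, a surface antigen, was steady at 313, 341, 312, 322 and 332 FPKM.

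General epithelial genes spread far less. The 13 pan-epithelial members had levels of -0.03, -0.06, -0.20, 0.17 and 0.07, and tumour 4 was highest for 8 of them as deposited but for 4 after scaling to equal sums, when tumour 1 was highest for 5. Epcam, a surface protein of all simple epithelia, was at 363, 419, 331, 341 and 386 FPKM, and Cdh1, the epithelial cadherin, at 207, 210, 244, 325 and 321. Cldn3, a tight junction claudin, varied more, at 65.6, 60.4, 23.5, 38.7 and 45.9 FPKM, lowest in tumour 3. Markers of other tissues were high in the same tumour as squamous genes: smooth muscle, mast cell and mitochondrially encoded genes were also highest in tumour 4, as given below, and their part in the squamous levels was not tested.

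Smooth muscle genes shared 1 order of tumours more often than the members of any other list with at least 5 members used. All 13 members used were highest in tumour 4, 12 were lowest in tumour 5 (17.4% of all genes), and 12 followed 1 full order, tumour 4 above 3, 1, 2 and 5. Scaling to equal sums left the counts at 13 and 12. The levels were -0.24, -0.88, 0.91, 1.85 and -1.29, a range of 3.14. Acta2, smooth muscle actin, was at 84.2, 67.7, 147, 263 and 47.4 FPKM and Actg2, the enteric form, at 53.1, 30.5, 111, 234 and 13.5 FPKM. Myh11, the smooth muscle myosin, was at 19.6, 9.7, 70.1, 118 and 5.29 FPKM. Des, which codes for the filament desmin, was at 15.7, 6.53, 39.5, 96.8 and 3.03 FPKM and Cnn1, the actin-binding calponin, at 10.9, 4.21, 24.6, 83 and 2.21 FPKM. In each of these the tumours were ordered alike and tumour 5 was lowest. Tagln, an actin-bundling protein, had the same order at low values, 0.914, 0.806, 1.18, 3.7 and 0.584 FPKM. Tpm2, a tropomyosin at 17.9, 7.18, 40.4, 87.7 and 7.98 FPKM, was the member out of order, with tumour 2 lowest by a small margin. The microRNA gene Mir145a, known from smooth muscle, was at 25.1, 14.4, 64.6, 75.1 and 2.62 FPKM over 70 bases, with 3 reads in tumour 5 and 80 in tumour 4, also in that order.

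Most skeletal muscle genes were near 0. Myh1 and Myh2 were listed at 0 in every tumour, Ckm, muscle creatine kinase, was at 0.0975, 0.0407, 0.609, 1.94 and 0 FPKM, and 3 of 10 members passed the mean of 0.5. The exception was Tnni2, a fast troponin subunit, at 9.14, 12.3, 14.7, 38 and 15.3 FPKM, highest in tumour 4. Fat cell genes shared the high tumours of smooth muscle in part. Of 4 members used of 7, 3 were highest in tumour 4 (27.5% of all genes) and 1 in tumour 3. Cfd, which codes for adipsin, was at 0, 0, 9.12, 10.5 and 0 FPKM. Adipoq, which codes for adiponectin, was at 0, 0, 1.49, 2.52 and 0 FPKM, so that both were detected in tumours 3 and 4 alone. Where they were listed at 0, 3 reads are worth 0.185 to 0.199 FPKM for Cfd. Cidec lay at -1.21, -1.16, 0.14, 1.81 and 0.42 from its mean on the log2 scale, with tumour 5 above tumour 3. Fabp4 lay at 0.15, -0.08, 0.62, 0.34 and -1.04, with tumour 3 first.

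Fibroblast and vessel genes had other leading tumours than muscle. Of 13 fibroblast and matrix members used, 9 were highest in tumour 1 (21.2% of all genes) and 10 were lowest in tumour 4 (28.4%). Col1a1, the main fibrillar collagen, was at 97.9, 60.3, 54.2, 28.3 and 47.2 FPKM and Col3a1, its companion, at 73.3, 42.7, 46.3, 23.3 and 34 FPKM. Of 12 endothelial members 11 were lowest in tumour 4, and tumours 1 and 2 were highest in 5 and 6 of them. Plvap, a diaphragm protein of fenestrated vessels, was at 45, 40, 42.4, 17.4 and 28 FPKM and Vwf, von Willebrand factor, at 6.28, 6.42, 5.58, 1.02 and 1.87 FPKM. Tumours 4 and 5 were below the other 3 in both. Tumour 4, highest in every smooth muscle gene used, was thus lowest in most fibroblast, matrix and vessel genes. It was highest for 2 of the 13 fibroblast and matrix members, Fbln1 and Lum, at 0.59 and 0.57 from their means on the log2 scale. After scaling to equal sums Lum was highest in tumour 3.

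**Figure D4:**
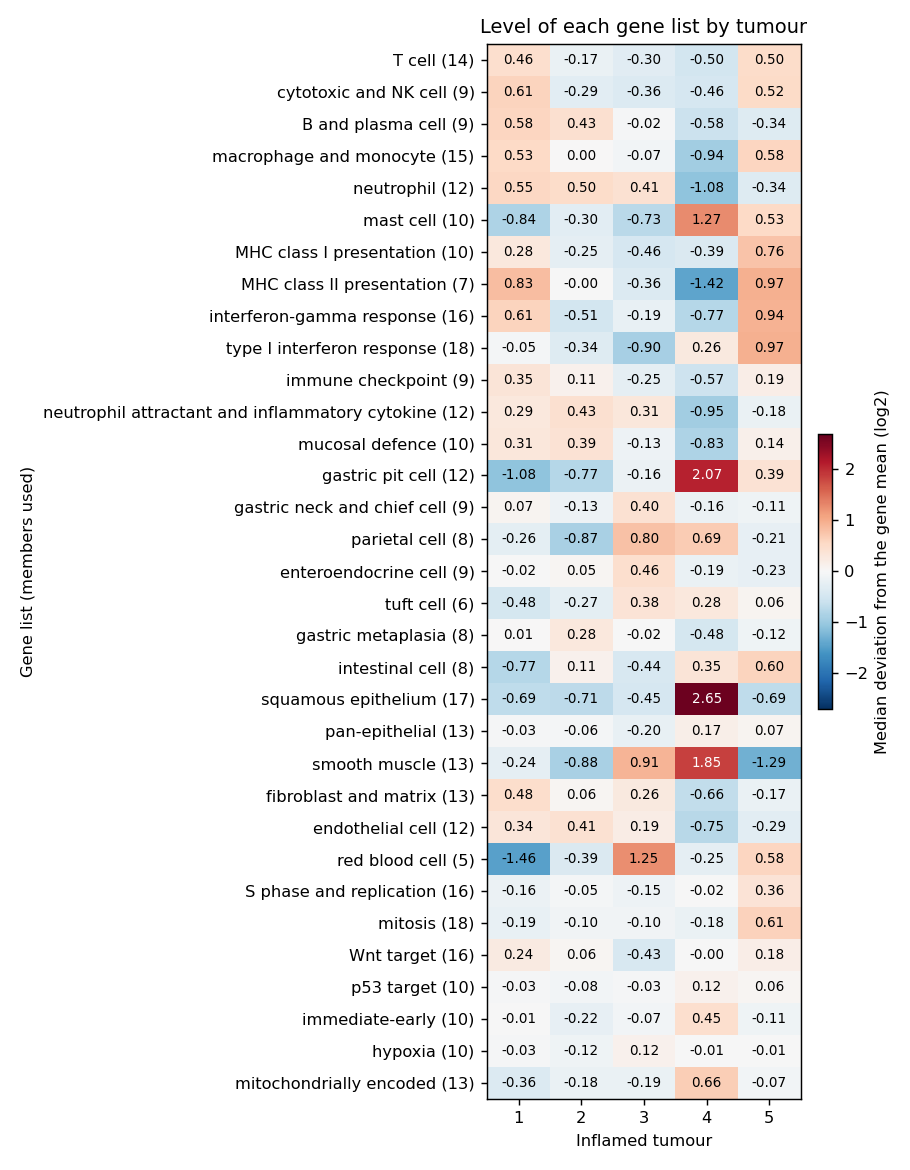
Level of 33 gene lists with at least 5 members used (number in brackets) in the 5 inflamed tumours, as the median over members of log2(FPKM + 1) minus the gene's mean over the 5 tumours. Tumour 4 is at 2.65 for squamous, 2.07 for pit cell and 1.85 for smooth muscle genes and at -1.42 for MHC class II genes, and tumour 5 is at 0.97 for MHC class II and type I interferon genes and 0.61 for mitosis genes.

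Lymphocyte genes were highest in tumours 1 and 5. Of 14 T cell members used of 16, 7 were highest in tumour 1 (21.2% of all genes) and 6 in tumour 5 (20%) as deposited. After scaling to equal sums these counts were 10 and 3. Tumour 4 was lowest for 8 members as deposited (28.4% of all genes) and for 11 after that scaling. Cd3e, a chain of the T cell receptor complex, was at 1.52, 0.655, 0.799, 0.515 and 1.6 FPKM, and Cd8a, the coreceptor of cytotoxic T cells, at 5.5, 1.6, 2.08, 2.57 and 5.69 FPKM. Cd4, the helper coreceptor, was at 2.42, 1.52, 1.8, 0.652 and 3.14 FPKM. Tumours 1 and 5 were above the other 3 in each of these. Foxp3, the regulatory T cell factor, was at 0.248, 0.194, 0.187, 0.129 and 0.28 FPKM, too low to be used in the list.

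Killer cell genes had the same leading tumours. Of 9 cytotoxic and NK members used of 14, 6 were highest in tumour 1 (21.2% of all genes) and 3 in tumour 5 (20%). Gzmb, the granule protease granzyme B, was at 17.4, 7.98, 7.81, 3.02 and 12.8 FPKM and Ccl5, a T cell chemokine, at 18.6, 5.38, 5.48, 4.17 and 16.5 FPKM. Ifng, interferon gamma itself, was at 1.93, 0.321, 1.15, 0.101 and 1.89 FPKM. Gzma, granzyme A, departed in that tumour 5 was not high, at 48, 22.1, 32.2, 4.38 and 21.4 FPKM, and tumour 4 stood apart below. Of 9 checkpoint members used of 10, 6 were highest in tumour 1 (21.2% of all genes) and 6 lowest in tumour 4 (28.4%). Ctla4, an inhibitory T cell receptor, was at 3.41, 1.68, 1.01, 0.395 and 1.81 FPKM, and Cd274, which codes for PD-L1, at 14, 3.8, 5.24, 4.06 and 13.4 FPKM. Lgals9, a galectin bound by an inhibitory receptor, ran otherwise, at 235, 211, 166, 307 and 326 FPKM, high in tumours 4 and 5.

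Plasma cell genes did not share the high tumour 5 of T cell genes. Of 9 B and plasma cell members used of 13, 7 were highest in tumour 1 (21.2% of all genes) and 7 were lowest in tumour 4 (28.4%). Igkc, the kappa light chain, was at 2605, 2317, 1507, 777 and 1194 FPKM, Igha, the IgA heavy chain, at 1154, 986, 690, 358 and 537 FPKM and Jchain, which joins IgA into dimers, at 208, 185, 132, 72.2 and 101 FPKM. These 3 genes had the same order, tumour 1 above 2, 3, 5 and 4, so that tumour 5 was low here and high for T cells. The B cell marker Ms4a1, which codes for CD20, was at 0.0367, 0.0288, 0.0185, 0.0425 and 0.0296 FPKM, at or near 0 in all 5 tumours.

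Macrophage genes were high in tumours 1 and 5 and low in tumour 4. Of 15 members used of 16, 8 were highest in tumour 1 and 7 in tumour 5 (10 and 5 after scaling to equal sums), and 14 were lowest in tumour 4. Of all genes, 21.2% and 20% were highest in tumours 1 and 5, and 28.4% were lowest in tumour 4. C1qa, a complement chain of resident macrophages, was at 72.1, 43.3, 36.7, 19.3 and 85 FPKM. Csf1r, the macrophage growth factor receptor, was at 13.3, 7.3, 6.41, 2.95 and 12.3 FPKM and Lyz2, the myeloid lysozyme, at 129, 78.4, 106, 45.9 and 194 FPKM. Spp1, which codes for osteopontin, was the exception to the low tumour 4, at 76.8, 81.5, 73.3, 127 and 238 FPKM.

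Neutrophil genes were lowest in tumour 4 and, for most members, low in tumour 5. All 12 members were lowest in tumour 4 (28.4% of all genes), and the list had levels of 0.55, 0.50, 0.41, -1.08 and -0.34. S100a8, a calcium-binding protein of neutrophils, was at 63.9, 54.1, 46.1, 1.61 and 5.63 FPKM and S100a9, its partner, at 81.6, 85.4, 84.8, 5.54 and 12.4 FPKM. Retnlg, a resistin-like neutrophil protein, was at 18.7, 18.9, 19.9, 0 and 0.927 FPKM, and the value listed at 0 in tumour 4 is under 0.332 FPKM, the worth of 3 reads. Tumour 5 lay between tumour 4 and the others in all 3 genes. Ngp, a granule protein outside the list, was at 13.6, 6.07, 6.18, 0 and 0 FPKM, with 3 reads worth 0.161 and 0.15 FPKM in the tumours listed at 0. Members without a low tumour 5 were Mmp9, a granule protease, at 7.36, 4.71, 4.96, 4.42 and 8.1 FPKM, Acod1, which makes itaconate, at 9.33, 3.48, 5.56, 2.23 and 8.15 FPKM, and Csf3r, the G-CSF receptor, at 2.97, 3.27, 4.15, 0.837 and 4.06 FPKM.

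Genes that attract neutrophils had a similar split. Of 12 members 11 were lowest in tumour 4 (28.4% of all genes), and tumours 1, 2 and 3 were highest for 3, 5 and 4 of them. Cxcl5, an epithelial neutrophil chemokine, was at 45, 40.1, 34.4, 7.62 and 29.6 FPKM and Cxcl2 at 6.86, 8.78, 13.5, 1.91 and 2.87 FPKM. Il1b, interleukin 1 beta, was at 19.6, 16.7, 24.9, 4.79 and 16.5 FPKM. The cyclooxygenase gene Ptgs2 and, outside the list, the cytokine gene Il11 and Ereg, an EGF receptor ligand, stood apart above in tumour 2. Il11, Ereg and Ptgs2 were there at 28.8, 21 and 18 FPKM, against no more than 12.8, 8.83 and 7.87 in the others. Nos2, the inducible nitric oxide synthase, was at 10.3, 2.59, 4.5, 0.37 and 3.62 FPKM and stood apart above in tumour 1 and below in tumour 4. Hp, haptoglobin, and Saa3, a serum amyloid, both chosen after their values were seen, were at 126, 68.2, 34.2, 4.05 and 13.3 and at 60.5, 31.1, 24.9, 4.71 and 14.8 FPKM, with the order 1, 2, 3, 5 and 4 from high to low.

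Mast cell genes had the reverse order of tumours 4 and 1 to that of most immune lists. Of 10 members 8 were highest in tumour 4 (27.5% of all genes) and 4 stood apart above there (1.45%). The levels were -0.84, -0.30, -0.73, 1.27 and 0.53. Mcpt1, a protease of mast cells in the mucosa, was at 47.7, 54.7, 39.4, 239 and 115 FPKM, and Cpa3, the mast cell carboxypeptidase, at 0.487, 2, 1.13, 13.8 and 5.68 FPKM. Fcer1a, the IgE receptor chain, was at 0.171, 0.951, 0.401, 5.73 and 2.75 FPKM. Tumour 5 was second in each. Mcpt4, a connective tissue mast cell protease, was the exception and stood apart above in tumour 1, at 51.1, 20.4, 19.4, 18.8 and 16.8 FPKM, and Kit was highest in tumour 3. The proteases are near-identical copies in part, so reads may be shared between them. The 2 eosinophil members used went opposite ways. Siglecf, a receptor of eosinophils, was at 0.57, 0.681, 0.902, 1.88 and 1.47 FPKM, highest in tumour 4, and Prg2, major basic protein, was at 3.18, 1.42, 0.956, 0 and 0.437 FPKM, highest in tumour 1. Epx was listed at 0 in all 5 tumours.

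Genes known from type 2 and goblet cell responses shared this order only in part. Clca1 and Chil4, described above, were highest in tumours 4 and 5. Itln1, an intelectin of goblet cells, was at 239, 513, 35.6, 179 and 512 FPKM, highest in tumours 2 and 5 and standing apart below in tumour 3. Fcgbp, a mucus protein, and Spink4, both chosen after their values were seen, were at 51.4, 177, 32.9, 199 and 145 and at 10.1, 40.8, 20, 181 and 36.9 FPKM. The alarmin Il33, chosen likewise, was at 35.8, 69.6, 53.7, 73.3 and 107 FPKM. The type 2 cytokine genes, also chosen after their values were seen, were low: Il13 was at 0.0471, 0, 0, 0.109 and 0.0507 FPKM and Il4 at 0.879, 0.677, 1.26, 0.696 and 0.896 FPKM.

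MHC class I genes were highest in tumour 5, and class II genes were highest in tumours 5 and 1 and lowest in tumour 4. All 10 MHC class I members were highest in tumour 5 (20% of all genes), with and without scaling to equal sums. B2m, the light chain of class I, was at 1735, 1436, 898, 1050 and 2743 FPKM, and Tap1, a peptide transporter, at 57.6, 29.4, 32, 31.4 and 80.2 FPKM. Tumour 1 was second for all 10. As deposited, tumours 2, 3 and 4 were lowest for 3, 4 and 3 of them, and after scaling to equal sums tumour 4 was lowest for 9. All 7 MHC class II members were lowest in tumour 4 with either scaling, and 4 stood apart below there (0.674% of all genes). Cd74, the invariant chain, was at 1345, 855, 597, 302 and 1559 FPKM and H2-Aa at 185, 101, 74.5, 30.3 and 190 FPKM. Ciita, the master regulator of class II, was at 13.2, 6.01, 6.61, 2.35 and 12.9 FPKM. Tumours 5 and 1 were on top in each, tumour 5 for 4 members as deposited and tumour 1 for 5 after scaling to equal sums.

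Interferon gamma response genes resembled MHC class II. Of 16 members used of 17, 12 were highest in tumour 5 (20% of all genes) and 4 in tumour 1 (21.2%). Tumour 4 was lowest for 12 (28.4% of all genes), and for 15 after scaling to equal sums. The most frequent order, found in 8 of 16, was tumour 5 above 1, 3, 2 and 4. Cxcl9, a chemokine for activated T cells, was at 53.8, 21.1, 22.7, 8.32 and 34.8 FPKM, and Gbp2, a guanylate-binding protein, at 176, 68.8, 131, 54.5 and 260 FPKM. Ido1, an enzyme of tryptophan breakdown, was at 21.4, 14.4, 25.7, 17.5 and 126 FPKM and stood apart above in tumour 5. Ubd, a ubiquitin-like protein outside the list, was at 32.4, 11.3, 20.8, 4.45 and 71.7 FPKM, and its values placed tumour 5 first and tumour 4 last.

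Type I interferon response genes had a different order, with tumour 3 last and tumour 4 not low. All 18 members were lowest in tumour 3 (20.9% of all genes) and 16 were highest in tumour 5. After scaling to equal sums, 16 were lowest in tumour 3 and 17 highest in tumour 5. The order tumour 5 above 4, 1, 2 and 3 was found in 12 of the 18, and the levels were -0.05, -0.34, -0.90, 0.26 and 0.97. After scaling to equal sums tumour 4 was level with tumour 1 (0.04 each) and tumour 5 remained first at 0.93. Isg15, a ubiquitin-like modifier, was at 37.8, 23.4, 15.1, 72.6 and 118 FPKM. Ifit1, which binds viral RNA, was at 15.3, 8.78, 6.03, 26 and 41.7 FPKM, and Rsad2, the antiviral enzyme viperin, at 6.4, 2.93, 2.22, 13.3 and 20.3 FPKM. Oasl1 was highest in tumour 4, at 41.5, 31.7, 31.6, 107 and 88.1 FPKM. Ifit2 was out of order, at 15.3, 5.3, 3.42, 3.95 and 24.2 FPKM, low in tumour 4. Tumour 5 was thus high in both interferon groups, while the place of tumour 4 in the type I group depended on the scaling.

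Promoters of the interferon groups are shown because members varied together within each group while the groups were ordered differently. They are RefSeq windows of GRCm38.p6, 250 bases before the annotated start, written 5′ to 3′ in the direction of the gene. Capitals mark matches on either strand to the ISRE core GAAANNGAAA, to which the factors activated by type I interferon bind, in the first 2, and to the GAS motif TTCNNNGAA, the gamma-activated site, in the third. The windows are Ifit1 (chr19:34640639-34640888, plus strand), Isg15 (chr4:156200819-156201068, minus strand) and Gbp5 (chr3:142496684-142496933, plus strand).
Ifit1: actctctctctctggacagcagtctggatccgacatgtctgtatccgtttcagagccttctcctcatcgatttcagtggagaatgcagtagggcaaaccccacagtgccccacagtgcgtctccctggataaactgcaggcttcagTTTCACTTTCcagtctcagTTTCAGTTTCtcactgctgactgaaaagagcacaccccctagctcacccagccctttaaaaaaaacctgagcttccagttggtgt
Isg15: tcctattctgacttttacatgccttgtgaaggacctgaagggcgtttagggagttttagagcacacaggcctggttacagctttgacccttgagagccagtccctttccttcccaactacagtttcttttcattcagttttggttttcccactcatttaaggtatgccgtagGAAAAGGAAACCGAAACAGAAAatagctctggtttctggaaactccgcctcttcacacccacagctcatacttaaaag
Gbp5: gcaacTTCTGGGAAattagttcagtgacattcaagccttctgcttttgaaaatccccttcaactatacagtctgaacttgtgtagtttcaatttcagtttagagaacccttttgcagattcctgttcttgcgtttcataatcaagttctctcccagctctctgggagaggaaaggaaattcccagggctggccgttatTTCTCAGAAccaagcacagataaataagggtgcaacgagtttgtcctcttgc

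In Isg15 the marked stretch holds 3 overlapping matches, and Ifit1 holds 2. Windows of 250 bases before to 50 after the start were searched on both strands in 27025 genes, of which 3.99% held the ISRE core and 9.55% the GAS motif. Of the 18 type I response genes 13 had a window, and 8 of 13 held the ISRE core and 2 of 13 the GAS motif. Of the 17 gamma response genes 12 had a window, and 9 of 12 held the ISRE core and 5 of 12 the GAS motif. The ISRE core was thus found in most of the genes with a window in both groups, Gbp5 among them, whose ISRE core is not capitalised. Gbp5, the guanylate-binding protein whose window is shown, was at 10.8, 3.82, 5.91, 1.64 and 11.6 FPKM, lowest in tumour 4. A match is a description of letters and not a measured binding site.

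**Figure D5:**
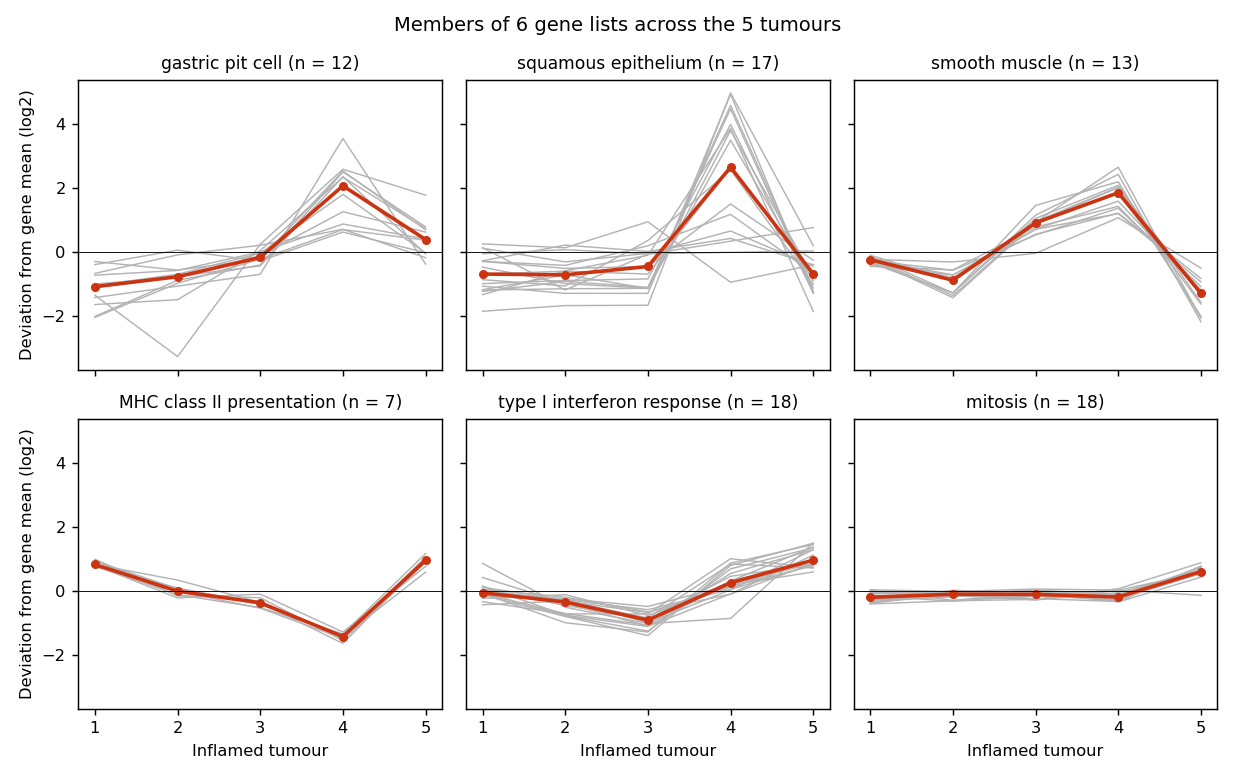
Deviation of each member (grey lines) from its own mean over the 5 inflamed tumours on the log2(FPKM + 1) scale, with the median of the list in red, for 6 gene lists. Lines join the values of 1 gene and imply no order of tumours. Pit cell, squamous and smooth muscle genes peak in tumour 4, MHC class II genes are lowest in tumour 4, type I interferon genes are lowest in tumour 3, and mitosis genes are highest in tumour 5.

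Genes of mucosal defence did not vary as one. Of 10 members tumours 1 to 5 were highest for 2, 4, 1, 2 and 1. Lcn2, an iron-binding defence protein, was at 192, 106, 41.1, 45.9 and 90.9 FPKM and Ltf, lactoferrin, at 354, 389, 125, 137 and 300 FPKM. Reg3b, an antibacterial lectin, was at 43.7, 91.7, 56.4, 24.5 and 40.4 FPKM. Tumour 4 was lowest for 4 of 10 as deposited and for 8 after scaling to equal sums. Gastric metaplasia genes were lowest in tumour 4 for 7 of 8, with Olfm4, a stem cell glycoprotein, at 8.11, 7.71, 3.8, 1.31 and 3.84 FPKM and Wfdc2, a secreted protease inhibitor, at 80, 48.7, 75.5, 23.9 and 42.1 FPKM. Sox9, a progenitor factor, was nearly level, at 54.3, 67.1, 52.4, 49.9 and 50.1 FPKM. Intestinal genes were highest in tumours 4 and 5 (4 each of 8 used of 11, and 2 and 6 after scaling to equal sums), among them Alpi, intestinal alkaline phosphatase, at 0.559, 5.66, 1.59, 18 and 14.7 FPKM. Tff3, the goblet cell trefoil factor, stood apart below in tumour 1 and above in tumour 5, at 2.53, 13, 8.93, 12.5 and 29.9 FPKM.

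Proliferation genes varied little in size but in near unison. Of 18 mitosis members 17 were highest in tumour 5, and of 16 S phase members 15 were (20% of all genes), or 17 and 16 after scaling to equal sums. None of the 34 stood apart by 1 on the log2 scale. The mitosis levels were -0.19, -0.10, -0.10, -0.18 and 0.61 and the S phase levels -0.16, -0.05, -0.15, -0.02 and 0.36. Mki67, the proliferation antigen, was at 15, 18.9, 20.2, 17.9 and 30 FPKM and Top2a, the topoisomerase of dividing cells, at 19.8, 23.4, 22.4, 19.3 and 41.1 FPKM. Cdc20, an activator of the anaphase-promoting complex, was at 20.3, 21.8, 19.3, 18 and 40 FPKM, and Ccnb1, the mitotic cyclin B, at 7.03, 7.6, 8.55, 7.09 and 15.3 FPKM. In each the 4 other tumours lay close together and tumour 5 lay above them. Mcm5, a subunit of the replication helicase, was at 12.4, 14.6, 12.3, 14.2 and 20.1 FPKM and Pcna, the polymerase clamp, at 25.5, 28, 26.9, 30.1 and 38.4 FPKM.

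Plk1, the mitotic kinase, was the member out of step. It was at 78.7, 75.8, 80, 78.2 and 69.8 FPKM, lowest in tumour 5. It was above the other mitosis genes in every tumour, and none of those exceeded 41.1 FPKM. Among S phase genes E2f1, their transcription factor, was highest in tumour 4, at 2.59, 2.41, 2.94, 4.33 and 3.87 FPKM. The tumour highest in these groups, tumour 5, was also the highest in most interferon genes and the lowest in most muscle genes, with summed muscle levels as given below, and their part in the proliferation levels was not tested.

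Promoters of 2 mitosis genes are shown because this group varied in near unison. The windows are Cdc20 (chr4:118437344-118437593, minus strand) and Mki67 (chr7:135716380-135716629, minus strand) of GRCm38.p6, again 250 bases before the RefSeq start, with capitals marking the cell cycle gene homology region motif TTTGAA, searched on both strands.
Cdc20: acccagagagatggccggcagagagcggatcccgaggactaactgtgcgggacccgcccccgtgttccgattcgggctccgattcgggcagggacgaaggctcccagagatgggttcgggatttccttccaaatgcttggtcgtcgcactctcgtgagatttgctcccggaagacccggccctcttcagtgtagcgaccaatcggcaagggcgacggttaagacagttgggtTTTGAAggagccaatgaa
Mki67: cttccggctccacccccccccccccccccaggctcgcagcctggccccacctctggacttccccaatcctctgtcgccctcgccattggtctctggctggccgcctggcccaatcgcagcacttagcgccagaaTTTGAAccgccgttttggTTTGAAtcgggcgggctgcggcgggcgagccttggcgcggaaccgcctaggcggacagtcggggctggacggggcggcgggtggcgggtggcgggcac

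The motif TTTGAA was in the windows of 10 of 13 mitosis genes, 2 of 13 S phase genes and 20.2% of all genes. The CCAAT box, letters CCAAT on either strand, was in 12 of 13, 8 of 13 and 41.1%. Plk1, whose level did not follow the group, held both motifs. For smooth muscle, the CArG box was in 1 of 10 genes with a window, the light chain gene Myl9, and in 1.81% of all genes.

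Wnt target genes were lowest in tumour 3. This was so for 12 of 16 members (9 after scaling to equal sums, when tumour 4 was lowest for 7), and tumours 5 and 1 were highest for 8 and 6. Axin2, the feedback scaffold of the pathway, was at 45.9, 28, 18.8, 29.8 and 33.2 FPKM and Nkd1, a feedback inhibitor, at 112, 68.7, 33.4, 79.3 and 99.1 FPKM. Notum, a secreted enzyme that inactivates Wnt ligands, was at 102, 71.9, 36.9, 88.8 and 113 FPKM. Wif1, a secreted Wnt inhibitor, was at 24.1, 25.9, 5.94, 31.8 and 33.5 FPKM and stood apart below in tumour 3. Ccnd1 and Myc, growth regulators that other pathways also drive, varied less, at 22.8, 28.1, 23.6, 24.5 and 32.2 and at 25.2, 24.4, 23.1, 17.9 and 25.7 FPKM.

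The targeted genes themselves were detected in all tumours. Apc was at 5.42, 5.33, 8.29, 6.38 and 6.5 FPKM and Trp53 at 7.05, 7.75, 9.06, 8.58 and 10.4 FPKM. These values cover whole genes in tissue that can hold unrecombined cells, and are no measure of how far the floxed parts were lost. Of 10 p53 target members used of 11, tumours 1 to 5 were highest for 1, 1, 0, 5 and 3 (2 each after scaling to equal sums), and the levels were -0.03, -0.08, -0.03, 0.12 and 0.06. Cdkn1a, which codes for the cell cycle inhibitor p21, was at 18.6, 17.4, 26.3, 53.8 and 31.9 FPKM, and Ccng1, cyclin G1, was at 20, 23.9, 26.4, 27.8 and 31.8 FPKM.

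Tumour 3 stood apart in sex-linked genes and was highest in red cell genes. Xist, the RNA of the inactive X chromosome, was at 0.019, 0.0265, 48.9, 0.00732 and 0.0136 FPKM, while Ddx3y and Eif2s3y of the Y chromosome were listed at 0 in tumour 3 and at 13.0 to 14.1 and 13.8 to 18.7 FPKM in the others. Red cell genes were highest in tumour 3 and lowest in tumour 1 for 5 of 5, with Hbb-bs, a beta globin, at 0.37, 4.56, 38.4, 5.99 and 22.3 FPKM. None stood apart above in tumour 3, and 3 of the 5 stood apart below in tumour 1 (0.134% of all genes). The globin genes have near-identical copies, so single genes are uncertain. The part of these markers in the enzyme, acid pump, Wnt and type I interferon levels of tumour 3 was not tested.

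Genes often read for RNA quality and handling, which were not measured here, also differed in tumour 4. Mitochondrially encoded genes took 2.02%, 2.28%, 2.37%, 3.70% and 2.44% of reads, and 12 of 13 were highest in tumour 4 (11 after scaling to equal sums). Of 10 immediate-early genes 7 were highest there (27.5% of all genes), among them Fos at 31, 42, 36.2, 89 and 33.2 FPKM. After scaling to equal sums 6 were, and the level of the list in tumour 4 was 0.27, against 0.45 as deposited. Hypoxia genes were not high there as a list: their levels were -0.03, -0.12, 0.12, -0.01 and -0.01. The summed FPKM was 426, 397, 423, 1036 and 497 for squamous, 280, 176, 610, 1216 and 112 for smooth muscle and 146, 161, 126, 493 and 272 for mast cell members. In the squamous sum the steady Ly6d held 313, 341, 312, 322 and 332 FPKM, and Sprr1a, highest in tumour 5, averaged 95.6 FPKM. Outside tumour 4 these exceptions made up most of the sum, so it understates how far apart the other squamous members were. The part of all the markers in this paragraph in the levels of tumour 4 was not tested.

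Set side by side by the most frequent order of tumours within each list, the lists fell into a few patterns. Tumour 4 came first and tumour 5 second for pit cell (8 of 12 members with that order), mast cell (5 of 10) and mitochondrially encoded genes (4 of 13). Smooth muscle genes also had tumour 4 first, but tumour 3 second and tumour 5 last (12 of 13). Tumours 1 and 5 came first and tumour 4 last for MHC class II (4 of 7), gamma response (8 of 16), macrophage (4 of 15) and T cell genes (3 of 14). Tumours 1, 2 and 3 in some order came before tumours 5 and 4 for B and plasma cell (4 of 9), neutrophil (3 of 12), neutrophil attractant (3 of 12), vessel (3 of 12) and fibroblast and matrix genes (3 of 13). As deposited, tumours 5 and 4 came first and tumour 3 last for type I interferon genes (12 of 18), and tumour 3 came first and tumour 1 last for red cell genes (4 of 5). Proliferation genes shared only the first place, tumour 5, as deposited, with no full order of tumours in more than 3 of 18 mitosis or 3 of 16 S phase genes. After scaling to equal sums tumour 4 was lowest for 16 of 18 and 12 of 16. With 5 tumours these are counts of orders, and no correlation across tumours was computed, since at least 6 samples were required for one.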

How the data were processed

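Bulk RNA of 5 inflamed tumours was measured, 1 library per tumour, from total RNA extracted with TRIzol per the labels' protocols. The authors deposited 1 table of FPKM for 56748 genes, normalized by the authors; which counter, strand setting and annotation they used is not given in the sources used here. Mouse build mm10 is named in the submitters' processing notes. Overlapping, antisense and near-identical genes are therefore uncertain, and positions are those of the deposited table. Multiplied by gene length, the deposited FPKM values gave whole reads for 100% of values above 0 (within 0.01), which supplied the read counts, the floor of 3 reads and the 95% Poisson intervals.

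Values were analysed as log2(FPKM + 1) with Python 3.11.15, numpy 2.4.6, pandas 2.3.3, scipy 1.17.1 and matplotlib 3.10.9. Genes averaging 0.5 FPKM or more were described, and spread was ranked among those of at least 5. The script was tested on simulated data. Named genes were the 20 most abundant, the 25 most and 10 least variable (the latter with a mean of at least 20), up to 5 furthest above and 3 furthest below in each tumour, members of 40 gene lists, and Apc, Trp53 and Tff1. Predicted genes, pseudogenes, ribosomal protein genes, mitochondrially encoded genes and antigen receptor segments were left out of the rankings, except that they remain in all counts. Immune, gastric, squamous, muscle and cell cycle lists could supply any member, and the other lists up to 4. Adipoq, Axin2, Ccnd1, Cdh1, Cpa1, Epcam and Myc fall outside this rule and were picked with their values known. The tumours, lists and rules were chosen with earlier results of these data known. No test between groups was made; Dixon's limit was used to single out tumours in the closing section. Alternatives were other pseudocounts, scalings and filters, the mean over members, and each tumour left out. Promoters came from RefSeq (GRCm38.p6).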

Additional observations from a re-analysis of the deposited data

Results flagged for a closer look

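A tumour was singled out where its gap to the nearest other tumour exceeded 0.71 of the whole range of the 5, the limit of Dixon's test, which chance passes in about 1 in 20 groups of values not chosen for their spread. The genes examined were mainly the most abundant and the most variable, so that rate does not hold for them. Of 40 list levels 4 passed, and of 47 genes 10 passed. Among list levels, tumour 4 was alone at the top for squamous genes (0.923 of the range) and mitochondrially encoded genes (0.714), and tumour 5 for mitosis genes (0.88) and S phase genes (0.73). Among genes, tumour 4 was alone at the top for Krt1 (0.989), Krtdap (0.964), Sprr3 (0.945), Lgals7 (0.924), Lor (0.916), Krt10 (0.906), Krt5 (0.857) and Tff1 (0.789). Tumour 4 was alone at the bottom for Clu (0.715). Tumour 3 was alone at the top for Xist (0.995). Members of a list are not independent of each other, and neither are the squamous genes among these 10.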

How the results depend on the processing

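No paired analysis was possible because the report describes 1 group of tumours and rests on no test between groups. Median-of-ratios scaling left all 80 summary values examined within 1.5 times (counts) or within their interval or spread (other values). Of the 80, 66 were shares of list members, judged by a binomial interval over the members. That interval takes members as independent, which they are not, and is wide for short lists. With equal sums, T cell members highest in tumour 1 went from 7 to 10 of 14 and counted as unchanged. A share not named below may therefore still have moved. Median-of-ratios scaling hardly changed the input. The median gene of each tumour lay at -0.021 to 0.009 as deposited and -0.013 to 0.006 after that scaling. This setting therefore says little about how the results depend on scaling. The counts of genes apart depended most on how low values were treated. With a pseudocount of 0.1 they were 108, 75, 72 and 74 above in tumours 1, 2, 3 and 5 and 114, 93, 155, 396 and 196 below in tumours 1 to 5, and r ran from 0.876 to 0.947. With a pseudocount of 0.01 they were 113, 84, 83 and 88 above and 143, 122, 197, 468 and 239 below, and r ran from 0.821 to 0.908. With no filter on low values, 334 genes had an SD of at least 1, 62, 67 and 52 genes were apart above in tumours 2, 3 and 5, and the lowest r was 0.968. With a mean FPKM of at least 5, fewer genes were apart above (15, 8, 14, 110 and 10) and below in tumours 2, 3 and 5 (14, 26 and 15), and the lowest r was 0.863. At that filter, where fewer members remained, the share was 100% for T cell genes highest in tumour 1, cytotoxic and B or plasma cell genes highest in tumour 1 and lowest in tumour 4, endothelial genes lowest in tumour 4 and S phase genes highest in tumour 5. With a mean of at least 20, 72 genes had an SD of at least 1.

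Scaling the FPKM sums to be equal left 186 genes apart below in tumour 4. It put tumour 4 lowest for 93.8% of gamma response, 100% of neutrophil attractant and 80% of mucosal defence genes and highest for 30.8% of pan-epithelial genes. Tumour 3 was then lowest for 10% of MHC class I and 7.69% of pan-epithelial genes, tumour 5 highest for 100% of S phase genes, and tumour 1 lowest for 12.5% of S phase and 5.56% of mitosis genes. The cause of these differences was not tested beyond what the settings themselves change.

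Leaving out each tumour in turn gave 112 to 229 genes with an SD of at least 1 and a lowest r of 0.918 to 0.954, the ends 112 and 0.954 being without tumour 4. Shares of members highest in tumour 5 ran from 57.1% to 100% for MHC class II, 75% to 100% for gamma response, 88.9% to 100% for type I interferon and 93.8% to 100% for S phase genes. Shares highest in tumour 1 ran from 50% to 92.9% for T cell, 66.7% to 100% for cytotoxic and 53.3% to 93.3% for macrophage genes, the upper ends being without tumour 5. Shares lowest in tumour 4 ran from 91.7% to 100% for neutrophil attractant and for endothelial genes. Tumour 4 was highest for 92.3% to 100% of mitochondrially encoded and 44.4% to 85.7% of intestinal genes. Tumour 1 was lowest for 83.3% to 100% of pit cell and 50% to 100% of intestinal genes, and tumour 5 for 92.3% to 100% of smooth muscle genes. Depth limits genes below about 0.5 FPKM, where 1 library holds few reads.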

Other observations

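Antigen receptor segments, left out of the naming of genes, made up 21 of the 180 most variable genes, with their share of all genes examined not counted. Their summed FPKM in those 21 was 478, 310, 131, 63.0 and 125 in tumours 1 to 5, so that tumours 1 and 2 lay above the others. In 11 of the 21 tumour 1 was highest, in 9 tumour 2 and in 1 tumour 5. Segments share sequence with their relatives, so single segments are uncertain.

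Several genes that stood apart in 1 tumour belong to none of the lists. Mug1, a plasma protease inhibitor, was at 20.8, 178, 11.6, 64.4 and 47.9 FPKM and stood apart above in tumour 2. Alox12e, a lipoxygenase, was at 20.3, 1.87, 3.93, 0.535 and 2.1 FPKM and stood apart above in tumour 1. Mt2, which codes for a metallothionein, was at 45.1, 20.8, 20.1, 18 and 19.7 FPKM and was also highest in tumour 1. Glp1r, the receptor of the hormone GLP-1, was at 7.87, 8.02, 16.5, 0.916 and 7.01 FPKM and stood apart below in tumour 4. Chil3, a chitinase-like protein of myeloid cells and a relative of Chil4, was at 21, 15, 22.7, 5.72 and 0.973 FPKM and stood apart below in tumour 5. Ces1d, a carboxylesterase, was at 9.54, 9.59, 12.2, 7.96 and 1.86 FPKM and lowest in tumour 5, and Slamf9, a receptor of myeloid cells, at 4.5, 4.93, 6.23, 5.55 and 15.5 FPKM and highest there.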
